A study of Mus musculus with 6 samples.

Results

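The genes described are the 3 chains of the interleukin-2 (IL-2) receptor, Il2ra, Il2rb and Il2rg, the Janus kinases Jak1 and Jak3, and the feedback inhibitors Cish, Socs1, Socs2 and Socs3. They were chosen by name for their place in the IL-2 pathway, with earlier results of these data known, and are 9 of 49315 genes in a table of read counts. IL-2 is the growth and survival factor of regulatory T cells (Tregs), a class of CD4+ T cells marked by the transcription factor Foxp3 that hold immune responses in check. Tregs carry much of the alpha chain (CD25, from Il2ra), which raises the affinity for IL-2, while the beta chain (Il2rb) and the common gamma chain (Il2rg) carry the signal. Jak1 sits on the beta chain and Jak3 on the gamma chain, and both activate the transcription factor STAT5. STAT5 in turn induces genes of the SOCS family, whose proteins bind receptors or kinases and end the signal.

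The study sequenced RNA in bulk from Tregs of skin and of skin-draining lymph nodes (SDLNs) of 9-day-old Foxp3-GFP mice, a reporter strain in which cells that express Foxp3 are green. The 3 skin and 3 SDLN samples shared this genotype and age, no treatment is named, and each sample pooled 3 biological replicates before a sort of live CD45+ CD4+ EGFP+ cells. The labels give all 6 samples the same batch number, and their tissue field reads skin for the lymph node samples too, so groups were taken from the titles. Libraries are named A to C by their column letters, and nothing ties a skin letter to the same SDLN letter.

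The libraries differed in depth and in content before any comparison of the 9 genes. The depth was 3748669, 11741784 and 9033442 counts for skin A, B and C and 47243498 to 116158706 counts for SDLN Tregs, and 2911 to 5317 genes reached 1 CPM (counts-per-million, relative to the depth) in skin against 12397 to 13002 in SDLN. A count of 3 or fewer is called the floor, since an observed 0 allows a true level of up to 3 counts (0.255 to 0.8 CPM in skin, counting error only). Of the genes behind the sort, Foxp3 and Cd4 did not bear out the labels of skin Tregs A and C, which are called so here by label only, while Ptprc (CD45) was at 1110 and 2816 CPM in them. Foxp3 had 0, 330 and 1 counts in skin A, B and C, compared with 1788 to 12208 in SDLN, and Cd4 had 0, 1861 and 2 against 14288 to 54756. In skin A and C, 79.0% and 57.0% of all genes at the SDLN level of Foxp3 (30 to 100 CPM) were at the floor, and 29.5% and 5.98% at that of Cd4 (300 to 1000 CPM). Marker genes of myeloid cells summed to 33339 to 56899 CPM in skin and 431 to 772 CPM in SDLN. Of 16 tested, 14 were called higher in skin and 1 higher in SDLN, with Itgam at 0 in skin. Genes known to respond to tissue digestion summed to 13400 to 37228 CPM in skin against 4053 to 4300 CPM in SDLN (9 of 17 called higher in skin). Markers of T cells summed to 4434 to 6608 CPM in the libraries labelled skin and 8670 to 9271 CPM in SDLN, and those of Tregs to 2016 to 4544 CPM against 3171 to 3458 CPM, with Izumo1r at 0 in skin. Of 11 T cell markers 1 was called higher in SDLN and none higher in skin, and of 6 Treg markers 1 was called higher in each tissue. Markers of CD8 T cells and NK cells, which also use Il2rb, summed to 365 to 729 CPM in skin and 129 to 163 CPM in SDLN, with Cd8a, Cd8b1, Ncr1 and Prf1 at 0 in skin. Of these markers 3 of 5 tested were called higher in SDLN and 1 higher in skin, and the skin sums rested on 2, 1 and 1 genes above the floor in A, B and C. The remaining marker lists (mast cells and granulocytes, gamma delta T cells, B cells, fibroblasts, keratinocytes and endothelium) summed to at most 226 CPM in any library. Mast cell and granulocyte markers reached 226 CPM in skin A (SDLN 11.6 to 26.7). Gamma delta T cell markers reached 117 CPM in skin C (SDLN 19.6 to 28.0), and fibroblast markers 90.6 CPM in skin B (SDLN 1.44 to 7.56). In the other skin libraries these sums were below SDLN, as were those of B cells, keratinocytes and endothelium in every skin library. In bulk RNA, fewer cells of a type and less RNA per cell cannot be told apart, and the part that other cells, digestion or depth had in the values below was not tested.

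Between tissues, 1 of the 9 genes differed past the threshold. Socs1 was lower in skin Tregs, and no gene of the 9 was called higher in skin (edgeR quasi-likelihood test over 13572 genes, Benjamini-Hochberg adjusted p below 0.05). At an unadjusted p under 0.05 the same count held, 1 of 9. Of all genes tested, 45.3% were called higher in SDLN and 1.04% higher in skin, a background that holds many genes of low level. At the SDLN levels of the 9 genes, the shares called higher in SDLN add up to 1.40 of 9, and the count of 1 was near it. The median log2 fold change (skin over SDLN) was -1.16 over the 9 genes and -2.21 over all genes tested. It was 0.28 over the 1623 genes that lay above the floor in every library, a group that holds 4 of the 9, the receptor chains and Socs2. In 3 of the 9 genes (Jak3, Cish and Socs1) every skin library lay below every SDLN library, as did 53.6% of genes tested, and in none did every skin library lie above, as 2.39% did.

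**Figure D1:**
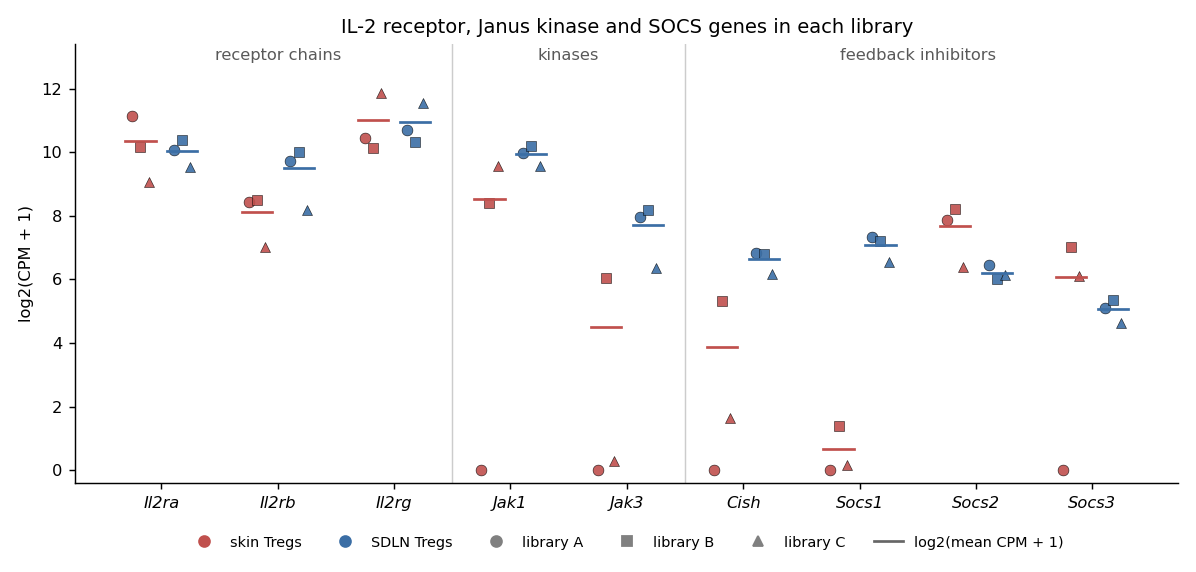
Level of each gene in each library as log2(CPM + 1), with skin Tregs in red, SDLN Tregs in blue, marker shapes for libraries A, B and C, and lines at log2(mean CPM + 1). The receptor chains and Socs2 were detected in all 6 libraries, while 5 genes had 0 counts in skin Tregs A.

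The receptor chains were the best measured of the 9 genes, with at least 1164 counts in every library. Il2ra (GRCm38 chr2:11642807-11693193, plus strand), the gene of CD25, was at 2232, 1137 and 534 CPM in skin A, B and C. The SDLN libraries A, B and C were at 1062, 1330 and 748 CPM. The skin values spanned the whole SDLN range, with skin A highest and skin C lowest of all 6. Skin averaged 1301 ± 861 and SDLN 1047 ± 291 CPM (SD, n = 3 each), and the log2 fold change was 0.14 (SE 0.40, 95% interval -0.85 to 1.13, edgeR adjusted p = 0.91). Skin A, with no Foxp3 or Cd4 counts, held the highest share of Il2ra reads. The sign of this fold change turned when skin A was left out (-0.35), when SDLN C was left out (-0.12) and in 2 other settings, so the data gave no direction.

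Il2rb (chr15:78479256-78495271, minus strand), the chain that binds Jak1, was at 343, 361 and 129 CPM in skin A, B and C. The SDLN libraries A, B and C were at 837, 1034 and 291 CPM. The groups overlapped through SDLN C, which lay below skin A and B. Skin averaged 278 ± 129 and SDLN 721 ± 385 CPM (SD, n = 3 each), a log2 fold change of -1.44 (SE 0.62, 95% interval -2.99 to 0.11, edgeR adjusted p = 0.13). The fold change was negative in all 15 alternatives and passed the threshold in none, with adjusted p from 0.0542 to 0.526. The lowest of these came without SDLN C, where the log2 fold change was -1.92. With skin B alone, the single skin library with Foxp3 and Cd4 well above the floor, it was -0.91 (SE 0.65).

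Il2rg (chrX:101264378-101268255, minus strand), the chain shared by the receptors for IL-2, IL-4, IL-7, IL-9, IL-15 and IL-21, was at 1383, 1126 and 3745 CPM in skin A, B and C. In SDLN A, B and C it was at 1641, 1265 and 2991 CPM. Library C was the highest of its tissue in both, and the groups overlapped throughout. The log2 fold change was 0.19 (SE 0.74, 95% interval -1.65 to 2.02, edgeR adjusted p = 0.94), and it was -0.98 without skin C. An exon of the predicted gene Gm20489 overlaps Il2rg on the same strand, and how reads there were assigned is not stated.

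Per length of exon, Il2rg had the highest level of the 9 genes in both tissues. In TPM (transcript abundance scaled to a common total, computed here from the counts and the exon lengths of the annotation) its mean was 2493 ± 1794 in skin Tregs and 2358 ± 1013 in SDLN Tregs (SD, n = 3 per tissue). Il2ra followed with 633 ± 397 TPM in skin and 534 ± 170 TPM in SDLN. Il2rb was at 182 ± 82.7 TPM in skin and 492 ± 276 TPM in SDLN. In SDLN the ranges of Il2ra, Il2rb and Jak1 (396 ± 102 TPM) overlapped, but Il2ra was above Jak1 in each SDLN library. Il2rb was above both in SDLN A and B and below both in SDLN C. In skin Il2ra was above Il2rb in each library, and Jak1 (146 ± 153 TPM) lay above Il2rb in skin C and below it in skin A and B.

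Set against each other within a library, which removes the library's depth, the alpha chain stood higher over the beta chain in each skin library than in any SDLN library. The level of Il2ra per kilobase of exon was 4.88, 2.36 and 3.11 times that of Il2rb in skin A, B and C. In SDLN A, B and C it was 0.952, 0.965 and 1.93 times. All skin ratios lay above all SDLN ratios, by 1.45 on the log2 scale (means 1.72 ± 0.53 and 0.28 ± 0.58, SD, n = 3 each). The exact permutation test (two-sided) gave 0.1, which is as low as 3 against 3 libraries can reach, so the threshold could not be passed (0.167 adjusted over 5 ratios). The difference stayed between 1.16 and 1.78 when any 1 library was left out. The ratio of Il2ra to Il2rg overlapped between the tissues, at 0.674, 0.422 and 0.0596 across skin A, B and C, while SDLN A, B and C had 0.270, 0.439 and 0.105 (difference 0.15 on the log2 scale, exact permutation p = 1).

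**Figure D2:**
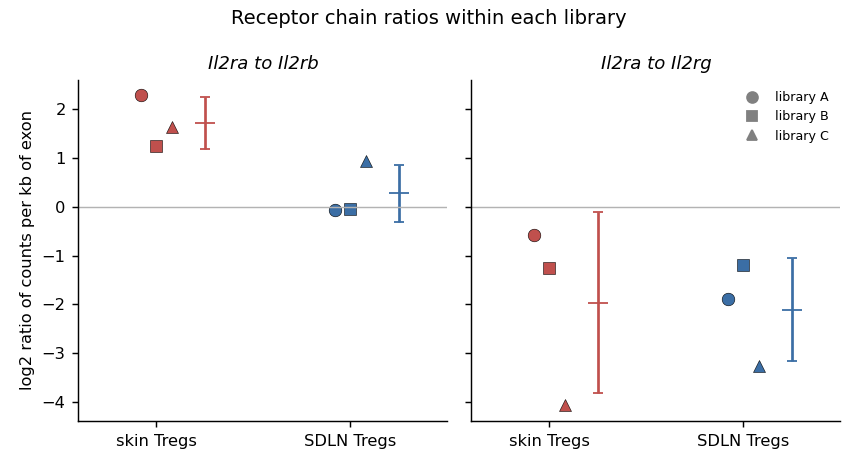
Log2 ratio of counts per kilobase of exon within each library, for Il2ra to Il2rb (left) and Il2ra to Il2rg (right), with the mean and SD of the 3 libraries beside the points. The 3 skin ratios of Il2ra to Il2rb (1.24 to 2.29) lie above the 3 SDLN ratios (-0.07 to 0.95), while those of Il2ra to Il2rg overlap.

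SDLN C set the lower end of most SDLN values and is compared here with SDLN A and B. Relative to the mean of SDLN A and B, it was lower for Il2rb (-1.69 on the log2 scale), Jak3 (-1.72), Socs1 (-0.75), Il2ra (-0.68), Cish (-0.65), Socs3 (-0.63), Jak1 (-0.55) and Socs2 (-0.12), and higher for Il2rg (1.04). Exon length moved with this difference over protein-coding genes above 10 CPM in all SDLN libraries. Its median was 0.21 in 905 genes with up to 2000 bases of exon, 0.013 in 1124 genes of 2000 to 3000 bases and -0.39 in 1492 genes with over 8000 bases. The exons of Il2rg cover 2387 bases, where the median of its class was near 0, those of Il2rb 4287 and those of Jak3 5352, and genes of 3000 to 5000 and 5000 to 8000 bases had medians of -0.09 and -0.27.

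The kinases were called in neither direction, and both had 0 counts in skin A. Jak1 (chr4:101152367-101265282, minus strand), which serves many cytokine receptors, was at 0, 338 and 759 CPM in skin A, B and C. The SDLN libraries A, B and C were at 1014, 1182 and 752 CPM. Skin C lay at the level of SDLN C, and skin B below every SDLN library. Its fold change on the log2 scale was -1.16 (SE 2.12, 95% interval -6.41 to 4.09, edgeR adjusted p = 0.83), an interval too wide to place the gene. It was -2.60 without skin C and -0.81 without skin A. Skin A would have held 3683 Jak1 counts at the mean SDLN level and had none.

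Jak3 (chr8:71676296-71690575, plus strand), which works with the gamma chain alone, was at 0, 64.5 and 0.221 CPM in skin A, B and C, from 0, 757 and 2 counts. In SDLN A, B and C it was at 247, 291 and 81.5 CPM. Each skin library was below each SDLN library, and skin A and C were at the floor although the mean SDLN level would have given 774 and 1864 counts there. Skin over SDLN gave a log2 fold change of -3.17 (SE 2.64, 95% interval -9.70 to 3.37, edgeR adjusted p = 0.49). The sole skin library with more than 2 Jak3 counts was B. Leaving it out keeps skin libraries of 0 and 2 counts alone, so the call made then (edgeR adjusted p = 0.015) follows from the library removed, and its fitted fold change, set against a group at the floor, is no measure of size. Exons of Raver2 overlap Jak1 on the opposite strand and those of Insl3 overlap Jak3 on the same strand, and the strand setting of the counting is not stated.

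Absence from single skin libraries was common among genes of similar level, and the members are read against it here. Of the 485 genes with a mean of 300 to 1000 CPM in SDLN, as Jak1 has, 29.5% were at the floor in skin A, 3.51% in skin B and 5.98% in skin C. Of the 1760 genes at 100 to 300 CPM, as Jak3 and Socs1, 60.6%, 22.7% and 29.0% were at the floor in A, B and C, and 31.9% were at the floor in at least 2 of the 3. At 30 to 100 CPM, the level of Cish, Socs2 and Socs3, the shares among 3649 genes were 79.0%, 50.3% and 57.0%. Over all tested genes, many of them of low level, 20.9%, 41.8% and 36.9% lay above the floor in skin A, B and C. Of the 9 members 4, 9 and 7 did, and the class shares above are the comparison at like level.

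**Figure D3:**
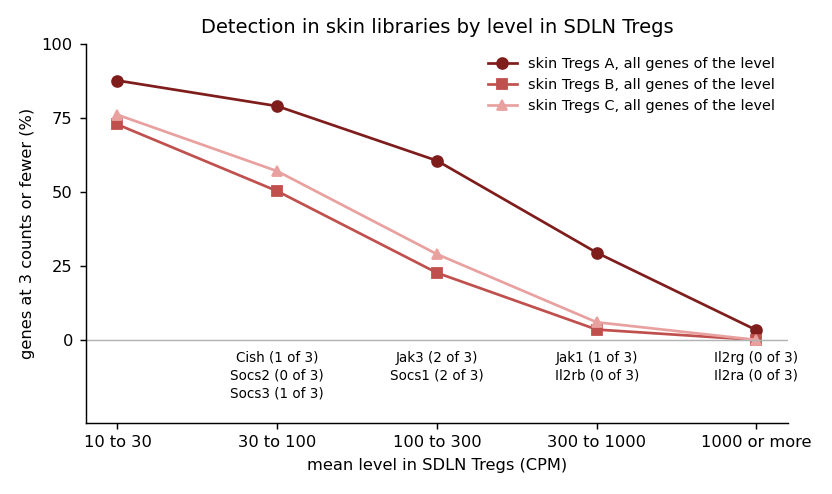
Share of genes at 3 counts or fewer in each skin library (vertical axis, percent) by mean level in SDLN Tregs (horizontal axis, CPM classes), with the 9 genes written under their class and the number of skin libraries in which each was at the floor. The share falls from 60.6% to 3.30% in skin A between 100 to 300 CPM and 1000 CPM or more.

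Among the feedback inhibitors, Socs1 was the gene that passed the test. Socs1 (chr16:10782240-10785536, minus strand) encodes an inhibitor that blocks Janus kinases directly and limits signals of IL-2 and interferons. It had 0, 19 and 1 counts in skin A, B and C (0, 1.62 and 0.111 CPM) and 18597, 10800 and 4342 counts in SDLN A, B and C (160, 148 and 91.9 CPM). The groups did not overlap, and the mean SDLN level would have given 500, 1567 and 1206 counts in the skin libraries. Skin A and C were at the floor, and Socs1 met the count filter through the SDLN libraries. The log2 fold change was -7.73 (SE 2.34, 95% interval -13.53 to -1.94, edgeR adjusted p = 0.0385). In the class of 100 to 300 CPM in SDLN, 10.6% of the 1760 genes tested were called higher in SDLN. In skin B, where Foxp3 and Cd4 were counted and 22.7% of that class lay at the floor, the Socs1 level relative to the SDLN mean was -6.37 on the log2 scale of CPM.

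The sign of the Socs1 fold change held under every alternative in which it was tested, but its call did not. The fitted value lay between -10.75 and -7.31 when any 1 library was left out. The value of -10.75 came without skin B, which keeps skin libraries of 0 and 1 counts, and is no measure of size. Of 14 alternatives in which Socs1 was tested, 8 kept the call, the fit without skin B among them. The edgeR adjusted p rose to 0.127, 0.123 and 0.0966 without SDLN A, B and C and to 0.0588 without skin C. It was 0.0539 with no count filter and 0.149 with the column letter as a replicate block. With DESeq2 the adjusted p was 4.2e-08.

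Cish (chr9:107296026-107302784, plus strand), a STAT5 target whose product CIS competes at receptors, had 0, 458 and 19 counts in skin A, B and C (0, 39.0 and 2.10 CPM). In SDLN A, B and C it was at 113, 111 and 71.1 CPM. Each skin library was below each SDLN library, with a log2 fold change of -2.76 (SE 2.31, 95% interval -8.50 to 2.99, edgeR adjusted p = 0.49). Skin B held 458 of the 477 skin counts, and without it the fold change was -6.19 (edgeR adjusted p = 0.0824). Exons of Gm17040 and Gm17041 overlap Cish on the opposite strand.

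Socs2 and Socs3 had higher means in skin, without passing the test. Socs2 (chr10:95385362-95417180, minus strand), known for restraining growth hormone signals, was at 233, 296 and 82.2 CPM in skin A, B and C. The SDLN libraries A, B and C were at 86.3, 63.2 and 68.9 CPM. Skin A and B lay above every SDLN library, and skin C was below SDLN A. Skin averaged 204 ± 110 and SDLN 72.8 ± 12.0 CPM (SD, n = 3 each), and the log2 fold change was 1.39 (SE 0.94, 95% interval -0.92 to 3.70, edgeR adjusted p = 0.35). It was positive in all 15 alternatives and called in 2 of them, DESeq2 (adjusted p = 0.0230) and skin B alone.

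Socs3 (chr11:117966079-117970047, minus strand), which binds the gp130 receptor chain and restrains IL-6 signals, was at 0, 130 and 68.1 CPM in skin A, B and C. The SDLN libraries A, B and C were at 33.5, 39.6 and 23.6 CPM. Skin B and C lay above all SDLN libraries while skin A had no count, where the mean SDLN level would have given 121. Its log2 fold change was 1.21 (SE 2.22, 95% interval -4.30 to 6.71, edgeR adjusted p = 0.83), and with limma voom it was -1.78. With 1 library left out it ranged from 0.42 (without skin B) to 1.60.

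With skin B alone against the 3 SDLN libraries, an alternative added after the data were seen, the feedback genes parted in both directions. The spread then comes from the SDLN libraries, and the lone skin library is assumed to vary like them. Socs2 (log2 fold change 2.07, SE 0.31) and Socs3 (2.08, SE 0.31) were called higher in skin (edgeR adjusted p = 0.0016 for each), as were 10.6% of the 18473 genes tested. Socs1 (-6.30, SE 0.57, adjusted p = 0.0002), Jak1 (-1.47, SE 0.37, adjusted p = 0.0136) and Cish (-1.27, SE 0.37, adjusted p = 0.0269) were called lower, as were 46.0% of genes tested. Jak3 (-1.59, SE 0.69, edgeR adjusted p = 0.0936) and the receptor chains were not called. These values compare 1 library with 3 and say nothing of the spread among skin samples. Skin B also held 36399 CPM of myeloid markers, against 431 to 772 CPM in SDLN. Its digestion genes summed to 19631 CPM, against 4053 to 4300 CPM. Foxp3 (28.1 CPM) and Cd4 (158 CPM) in skin B lay below every SDLN library. The part of other cells or digestion in these fold changes was not tested.

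The inhibitors were also ordered per length of exon within each tissue. In SDLN, Socs1 was highest at 133 ± 38.8 TPM, above Cish at 44.4 ± 11.7, Socs3 at 32.5 ± 9.38 and Socs2 at 22.0 ± 3.23 TPM (SD, n = 3 each). The ranges of Cish and Socs3 overlapped, as did those of Socs3 and Socs2, but within each SDLN library the order was Socs1, Cish, Socs3, Socs2. By mean in skin, Socs3 (65.7 ± 64.3 TPM) and Socs2 (60.1 ± 32.4 TPM) came before Cish (6.12 ± 9.78 TPM) and Socs1 (0.568 ± 0.890 TPM). Socs3 and Socs2 were not separated, and in skin A Socs3, Cish and Socs1 all had 0 counts. The ratio of Cish to Socs2 was 0.196 and 0.0389 in skin B and C against 1.53 to 2.60 in SDLN, and in skin A Cish had no count. With the floor values included the ratios did not overlap (exact permutation p = 0.1, the smallest possible, 0.167 adjusted over 5 ratios). Socs1 to Socs3 was 0.0127 and 0.00242 in skin B and C against 3.72 to 4.75 in SDLN, and no ratio has meaning in skin A, where both genes had 0 counts.

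**Figure D4:**
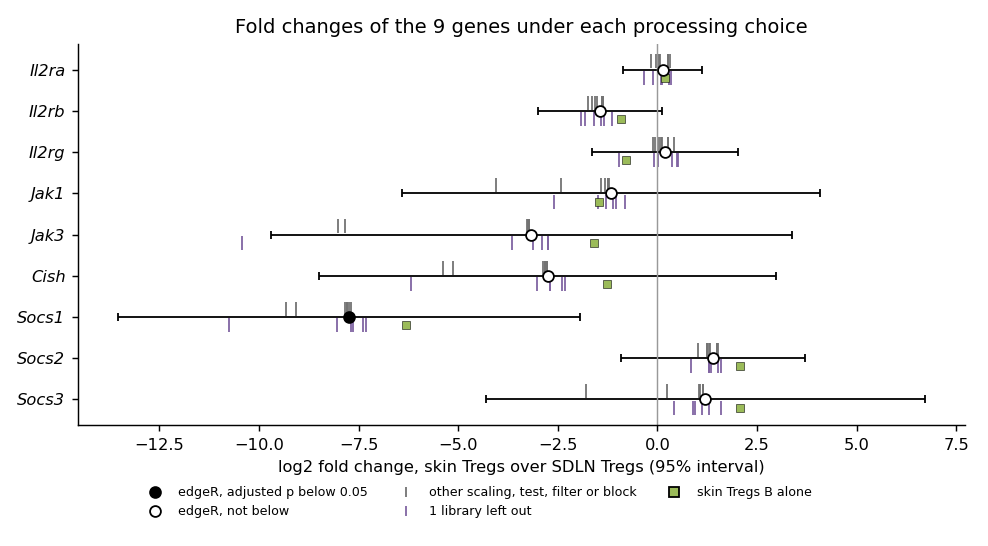
Log2 fold changes of the 9 genes, skin over SDLN, with 95% intervals (circles, filled where the edgeR adjusted p was below 0.05), other scalings, tests and filters and a block by column letter (grey ticks), fits with 1 library left out (purple ticks) and skin Tregs B alone (green squares). The receptor chains have the narrowest intervals, and the interval of Socs1 alone excludes 0.

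Since STAT5 acts at the promoters of its targets, the promoters of the 9 genes were searched for the letters of a STAT site, and those holding them are printed. A stretch of 300 bases around the start was taken from RefSeq (GRCm38.p6) for 7 of the 9 genes (Il2rb and Socs2 were not searched). The motif TTCNNNGAA, which reads as the same motif on the other strand, was found in 2 of the 7 promoters, those of Cish and Socs3, and in 8.30% of all 32851 promoters of this length. Cish held it 2 times (bases 1 to 9 and 12 to 20, counted from the RefSeq start), as 0.457% of promoters hold 2 or more, and Socs3 held it 1 time (bases -154 to -146). The Cish stretch is chr9:107296409-107296708 on the plus strand and that of Socs3 chr11:117969317-117969616 on the minus strand, both 5′ to 3′ with the motif in capitals. Both stretches lie inside the gene spans given above, so these RefSeq starts are downstream of the gene starts of the annotation.
Cish: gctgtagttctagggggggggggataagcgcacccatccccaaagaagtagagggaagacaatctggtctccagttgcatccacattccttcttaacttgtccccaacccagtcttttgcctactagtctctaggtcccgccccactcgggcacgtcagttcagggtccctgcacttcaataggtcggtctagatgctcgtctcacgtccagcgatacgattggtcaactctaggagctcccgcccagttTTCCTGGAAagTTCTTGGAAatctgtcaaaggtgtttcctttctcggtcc
Socs3: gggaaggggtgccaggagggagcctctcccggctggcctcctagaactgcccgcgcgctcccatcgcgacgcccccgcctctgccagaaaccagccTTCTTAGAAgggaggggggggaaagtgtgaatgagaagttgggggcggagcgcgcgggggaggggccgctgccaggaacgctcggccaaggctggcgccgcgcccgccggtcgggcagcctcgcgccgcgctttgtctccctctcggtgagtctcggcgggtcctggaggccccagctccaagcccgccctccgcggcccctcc
These 2 genes did not share a pattern across the libraries, with Cish lower in every skin library and Socs3 higher in skin B and C. A match of letters is a description of the sequence and not a site shown to be bound, and no match says only that these letters are not in the window.

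Around the 9 genes, 72 others of the pathway were followed in fixed lists, of which 65 were tested. In the edgeR test 1 was called higher in skin and 19 higher in SDLN, and 45 were not called, with a median log2 fold change of -1.66 (-2.21 over all genes tested). These are 1.54% and 29.2% of the 65, beside 1.04% and 45.3% of all genes tested, and the same shares are the background of the list counts that follow. That background holds many genes of low level and is not matched to the level of the lists. The share called higher in SDLN was 60.3% at 10 to 30 CPM in SDLN and 3.09% at 300 to 1000 CPM. In 18 of the 19 pathway genes called higher in SDLN (94.7%) no skin library exceeded 3 counts. That is about the share among all genes called higher in SDLN (94.4%). These 18 passed the count filter through the SDLN libraries alone. Pias3, the remaining one, had 5, 2 and 0 counts in skin A, B and C. With at least 10 counts required in every library, 0 pathway genes were called higher in SDLN. The gene higher in skin was Pim1, a kinase gene among the STAT5 targets. Pim1 was at 552, 802 and 1410 CPM in skin A, B and C, while SDLN A, B and C were at 252, 137 and 236 CPM, with every skin library above every SDLN library (log2 fold change 2.24, SE 0.69, edgeR adjusted p = 0.0421, kept in 7 of 15 alternatives). Without SDLN A, B or C, skin B or skin C in turn the Pim1 call was lost (edgeR adjusted p = 0.0753 to 0.112), while the log2 fold change stayed at 1.44 or more.

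The STAT5 target list held 10 genes, of which 1 was called higher in skin, 3 (Bcl2, Pim2 and Osm) higher in SDLN, and 6 not called. Mcl1, a survival gene, was at 282 to 510 CPM in skin and 101 to 125 CPM in SDLN (log2 fold change 1.81, SE 0.62, edgeR adjusted p = 0.0575) and was called higher in skin in 6 of 15 alternatives. Bcl2, another survival gene, had no count in any skin library and 97.1 to 132 CPM in SDLN. Stat5a was at 0, 130 and 0.221 CPM in skin A, B and C and, in SDLN, at 81.6 to 127 CPM, and Stat5b at 0, 22.4 and 0 CPM against 132 to 192 CPM. Neither was called (edgeR adjusted p = 0.87 and 0.34), and both were at the floor in skin A and C, as Jak3 was.

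Of the other Janus kinases and STATs, 3 of 9 (Tyk2, Stat4 and Stat6) were called higher in SDLN and none higher in skin. Jak2, which serves receptors other than that of IL-2, was at 370, 29.9 and 215 CPM in skin A, B and C and, in SDLN, at 40.3 to 53.2 CPM (edgeR adjusted p = 0.28). Of the 5 partners of the gamma chain in other receptors, Il7r, Il15ra and Il21r were called higher in SDLN. Il7r had 0, 0 and 2 counts in skin A, B and C and 67.6 to 112 CPM in SDLN. Of the 6 cytokines of the family, 2 were tested and 1, Il4, was called higher in SDLN, at 0.381 to 0.740 CPM there against 0 counts in skin. Those levels lie under the 0.8 CPM that a count of 0 allows in skin A. Il4, like the other called pathway genes at the floor in all skin libraries, passed the filter through the SDLN libraries alone. Il2 itself was at 0, 3.24 and 2.21 CPM in skin A, B and C and, in SDLN, at 0.889 to 1.68 CPM (edgeR adjusted p = 0.70).

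Other SOCS genes gave 2 of 4 called higher in SDLN, Socs5 and Socs7, both with 0 counts in all skin libraries. Socs4 was at 387, 0.0852 and 133 CPM in skin A, B and C and, in SDLN, at 18.6 to 25.8 CPM (edgeR adjusted p = 0.47). Among phosphatases, PIAS and adaptor inhibitors, 3 of 10 (Ptpn1, Pias2 and Pias3) were called higher in SDLN. Ptprc (CD45), used in the sort, was at 1110, 1908 and 2816 CPM in skin A, B and C and, in SDLN, at 1623 to 2820 CPM (edgeR adjusted p = 0.98). The adaptor, PI3K and MAPK branch gave 2 of 15 tested higher in SDLN (Hras and Mapk3), and the other receptors known to induce SOCS genes 2 of 10 (Il10ra and Ifnar2).

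**Figure D5:**
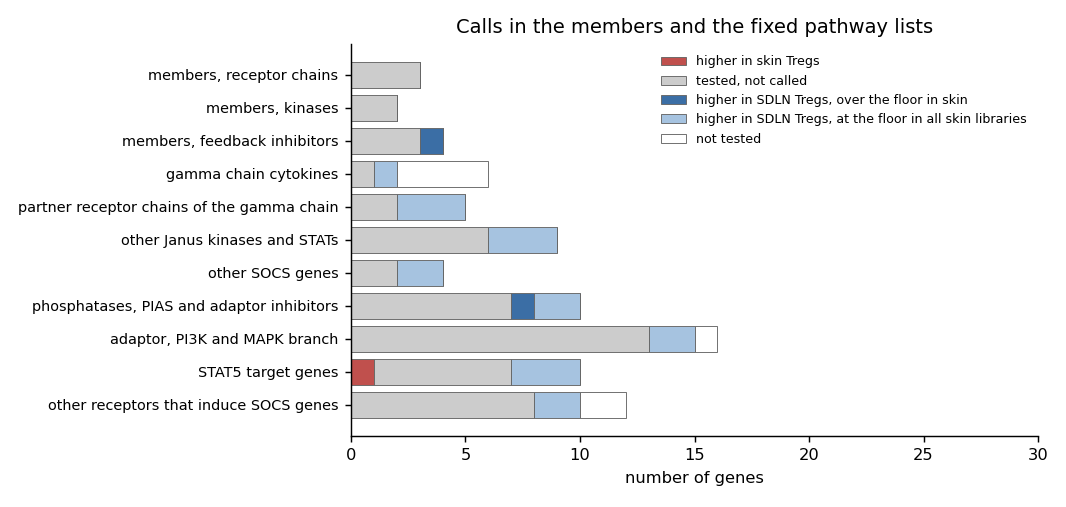
Number of genes in each list that were called higher in skin Tregs (red), tested and not called (grey), called higher in SDLN Tregs above the floor in some skin library (dark blue) or at the floor in all of them (light blue), or not tested (white). Pim1 is the single gene called higher in skin, and 18 of the 19 pathway genes called higher in SDLN outside the 9 members lie at the floor in all skin libraries.

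The genes whose levels followed the members most closely over the 6 libraries were taken from 7783 protein-coding candidates by the root-mean-square difference of centred log2(CPM + 1), where 0 would be the same pattern. The nearest to Il2ra was Tial1 (0.19), to Il2rb Pabpc1 (0.33) and to Il2rg Cope (0.20), followed closely by Hsp90ab1 (0.20). Jak1 had Add3 (0.39) nearest. For the inhibitors the nearest were Ndufc2 for Cish (0.24), Flii for Socs1 (0.19), Ptp4a1 for Socs2 (0.18) and Rsbn1 for Socs3 (0.11). The second nearest were Ripk3, Hnrnpa2b1, Cct5, Top3b, Letm1, Eva1b and Tbc1d22a for Il2ra, Il2rb, Jak1, Cish, Socs1, Socs2 and Socs3. Genes absent from the same skin libraries score as alike in this measure, and the points share library and depth.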

How the data were processed

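Tregs of 3 skin and 3 SDLN samples were measured by bulk RNA-seq. Per the submitters' processing notes and the labels, the authors trimmed reads with Trimmomatic 0.36, aligned them to GRCm38 with STAR 2.5.2b and counted them with featureCounts (Subread 1.5.2). The deposited table holds whole-number read counts for Ensembl genes, without normalisation. The annotation release and the strand and duplicate settings are not given in the sources used here. Whether PCR copies were counted is thus unknown, and intervals and floors cover counting error only. GENCODE M21 named 49056 of 49315 genes and gave exon lengths.

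Counts were tested with edgeR 4.0.16 in R 4.3.3 (filterByExpr, TMM, robust glmQLFit, tissue as the only term), with adjustment over 13572 genes and a threshold of 0.05. The SE came from the F statistic. Each sample pooled mice, so p-values measure the spread between pools. Expected counts are a library's total times the SDLN mean CPM. Ratios added 0.5 counts. Alternatives used DESeq2 1.42.0, limma 3.58.1, other scalings and filters, left-out libraries, and a block by column letter. The scripts were tested on simulated data. Named genes were the members, the fixed lists, the sort genes and the 2 nearest genes by pattern (those of Jak3 are not reported here). Members, lists and marker genes were chosen with earlier results of these data known. The labels number samples and the columns carry letters, so columns were matched to groups only.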

Additional observations from a re-analysis of the deposited data

How the results depend on the processing

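Of 130 values of the 9 genes under 15 alternatives (13 planned, 2 added after seeing the data), 106 kept their direction and side of the threshold, 6 lost the call, 8 gained one and 10 changed sign. Members called higher in skin numbered 0, but 1 with DESeq2 (Socs2) and 2 with skin Tregs B alone (Socs2 and Socs3). Members called higher in SDLN numbered 1, but 3 with limma voom (Jak3, Cish and Socs1), 3 with skin B alone (Jak1, Cish and Socs1), 0 without a count filter, 0 with a stricter filter (a minimum of 10 counts per library) and 0 to 2 with 1 library left out. This filter removed Jak1, Jak3, Cish, Socs1 and Socs3 before testing. Socs1 lost its call without a count filter (edgeR adjusted p = 0.0539) and without SDLN A, B or C or skin C. The cause of the other changes was not tested. The log2 fold change of Il2ra became -0.16 with voom and -0.027 with the stricter filter and ranged from -0.35 to 0.34 with 1 library left out. That of Il2rg became -0.11 with the stricter filter and -0.79 with skin B alone, and ranged from -0.98 to 0.52. That of Socs3 became -1.78 with voom. The difference in the Il2ra to Il2rg ratio ranged from -0.55 to 1.20, and in the Jak1 to Jak3 ratio from -1.23 to 4.48 around 2.18 (exact permutation p = 0.8). The latter rests on the added 0.5 counts, since both genes had 0 counts in skin A and Jak3 had 2 in skin C, and has no meaning there.

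Genes called higher in skin numbered 141, against 404 with DESeq2, 77 without a filter, 81 with the stricter filter, 1951 with skin B alone and 71 to 324 with 1 library left out. Genes called higher in SDLN numbered 6142, against 9 with the stricter filter. Pathway genes higher in skin numbered 1, against 2 with DESeq2 size factors, 2 with library totals, 6 with DESeq2, 0 without a filter, 0 with the stricter filter, 7 with skin B alone and 0 to 3 with 1 library left out. Pathway genes higher in SDLN numbered 19, against 34 with voom, 0 with the stricter filter, 38 with skin B alone and 13 to 29 with 1 library left out. The median fold change of all genes moved by -0.11 with TMMwsp, 0.12 with DESeq2 and -0.21 with the stricter filter, on the log2 scale. Column letters cannot be tied to the labels' replicate numbers. As a hint from the data, deviations from the tissue means over 1623 genes correlated at 0.0496, -0.013 and 0.196 between libraries lettered A, B and C, and of the skin libraries only C correlated best with its own letter, so the letters were not taken as pairs. With the letter as a replicate block, 61 genes were called higher in skin and 5633 higher in SDLN, and of the members 0 and 0 (Socs1 edgeR adjusted p = 0.149), with Il2rg at -0.071. A count of 0 in skin A allows up to 0.8 CPM by counting error alone.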
